A study of Homo sapiens with 8 samples.

Results

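Kasumi-1, a human line from an acute myeloid leukaemia with the RUNX1-RUNX1T1 fusion, was compared after 6 h with 40 uM chlorprothixene and untreated. Chlorprothixene is an antipsychotic of the thioxanthene class and an antagonist of dopamine receptors, with affinity also for serotonin, histamine and muscarinic ones. The comparison used 2 of the 8 libraries of a total RNA sequencing study, which also sampled Kasumi-1 at 12 and 24 h and the promyelocytic line NB4, which carries PML-RARA, untreated and at the same times and dose. Each group is 1 library, so the values carry no error between cultures, no test was made and differences are given as sizes only. No vehicle is named and the untreated library is not matched to the 6 h, so drug and time in culture cannot be told apart. Of 55765 gene names, 11326 reached 5 TPM in either library and are described here, and 44439 stayed below it in both. TPM is a level scaled for transcript length and to the same total in each library.

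An acute myeloid leukaemia line with the RUNX1-RUNX1T1 fusion is held at the stage of a myeloblast, and displays the stem cell factor receptor KIT and the progenitor antigen CD34. Cells answer an abrupt stimulus within minutes to hours with immediate early transcription factors, which need no new protein to be induced. They answer stress at the ribosome or in the endoplasmic reticulum with the integrated stress response, in which phosphorylation of eIF2alpha favours translation of ATF4, a factor for amino acid supply and stress genes. Cationic amphiphilic drugs such as antipsychotics are known for disturbing lysosomal cholesterol traffic, which the sterol-sensing factor SREBF2 answers with cholesterol synthesis.

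Read totals were not used here. Coverage per unit of TPM, a guide to depth, had a median of 1.62 untreated and 1.92 at 6 h, and the mitochondrial genome gave 8.73% and 7.94% of the TPM. Of the 11 markers listed for Kasumi-1 and myeloblasts, 10 reached 5 TPM. MPO, myeloperoxidase, had 9908 TPM untreated and 11406 TPM at 6 h, and RUNX1T1, the fusion partner normally silent in blood cells, 92.5 and 80.9 TPM against 0.0307 TPM in untreated NB4. Of the 10, ANPEP and PTPRC were at least 2-fold higher at 6 h, KIT, CD34 and CD33 at least 2-fold lower, and 5 lay between. CD38, the one left out, was below 1 TPM. Of 17 erythroid and megakaryocyte markers none reached 5 TPM (summed level 7.63 TPM untreated and 7.21 TPM at 6 h), of 16 lymphoid markers 3 did (48.7 and 35.4 TPM), and of 13 epithelial and fibroblast markers EPCAM alone did (25.3 and 30.1 TPM). The B cell marker MS4A1 and the keratins KRT8, KRT18, KRT19 and KRT5 were listed at 0 in both libraries. In such bulk RNA, fewer cells of a type and less RNA per cell cannot be told apart.

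A difference is given below as the log2 ratio of TPM + 1 at 6 h over untreated, and a gene is called higher or lower where this is at least 1 or at most -1, a 2-fold difference. By that rule 716 genes were higher (6.32% of the 11326) and 384 lower (3.39%). The median log2 ratio over all 11326 genes was -0.06, and 66.1% of them lay within 0.5 of 0. Of the genes called, 186 higher and 35 lower genes differed at least 4-fold, and 53 and 4 at least 8-fold. The higher genes were mostly scarce before treatment, with a median level of 6.01 TPM untreated and 21.2 TPM at 6 h. The lower genes had a median level of 26.7 TPM untreated and 9.14 TPM at 6 h. A gene scarce in 1 library was kept only where the other reached 5 TPM. Low levels on 1 side, and some of the calls, thus follow in part from the rule. The counts and medians of the gene lists below depend in part on it too. The share of all genes above or below 0 was not counted, so counts of list members by sign have no such share beside them. The highest level of C5orf34 (5.002 TPM) and CTB-133G6.1 (5.003 TPM) lay just above the minimum, and that of SNORA22 (4.995 TPM) and MIR93 (4.998 TPM) just under it. At the 2-fold threshold MALT1, with 17.8 TPM untreated and 36.6 TPM at 6 h, was just inside and LTBR, with 27.4 and 55.7 TPM, just outside.

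**Figure D1:**
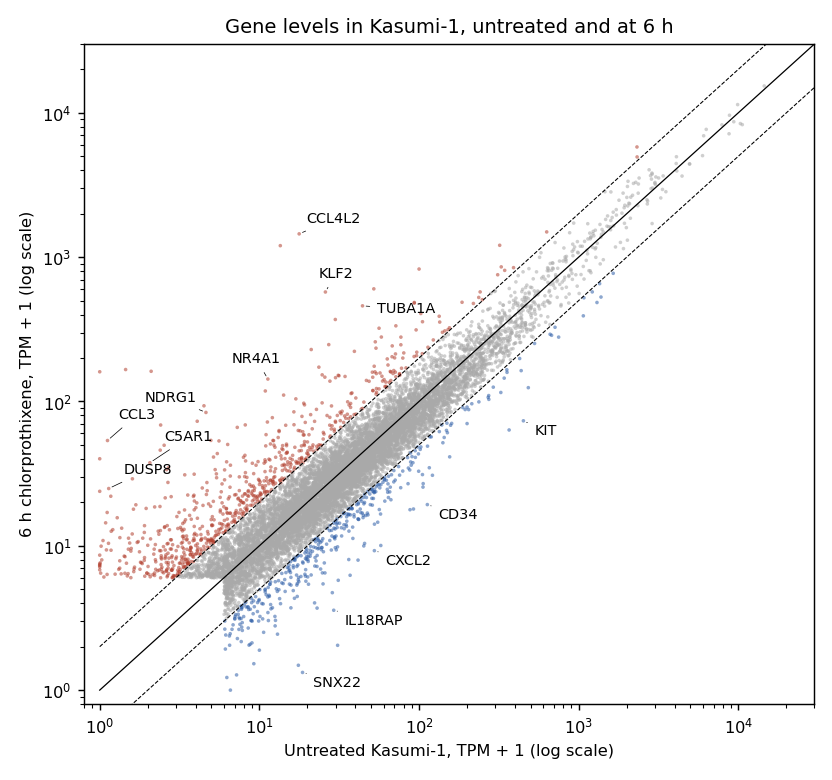
Level of each of the 11326 genes in untreated Kasumi-1 (x axis, TPM + 1, log scale) and after 6 h with chlorprothixene (y axis, same scale); 1 point per gene, red for the 716 genes at least 2-fold higher, blue for the 384 at least 2-fold lower, with equality as a solid line and 2-fold as dashed lines. Most of the red points lie at the low end of the x axis, and KIT and CD34 stand below the cloud.

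Of 11 markers of the progenitor state at 5 TPM 4 were lower, and some markers of mature myeloid cells were higher. KIT (chromosome 4, 55524085 to 55606881, hg19), the receptor for stem cell factor, stood at 449.8 TPM untreated and 72.5, 115.1 and 191.6 TPM at 6, 12 and 24 h. CD34 (chromosome 1, 208057594 to 208084747), a sialomucin of haematopoietic progenitors, stood at 111.8 TPM and then 18.3, 36.5 and 57.5 TPM. In both genes the 6 h library was the lowest of the 4, and the 24 h library the nearest to the untreated one among those treated. The log2 ratios at 6 h were -2.62 and -2.55. SOX4, a progenitor transcription factor, had 104.1 TPM untreated and 30.1, 50.7 and 69.9 TPM after treatment, and GFI1, a repressor of myeloid differentiation genes, had 324.6 TPM and then 114.4, 155.9 and 177.1 TPM. Of 18 progenitor markers 11 reached 5 TPM, and of these 4 were lower, none higher and 9 were below 0, with a median log2 ratio of -0.90 against -0.06 for all genes (-0.22 for the list with no minimum level). BAALC (-0.90), TAL1 (-0.90) and ERG (-0.66) were below 0 without reaching 2-fold, and GATA2 (0.24) and LMO2 (0.06) were above 0. The 7 that missed 5 TPM were MEIS1, HOXA9, FLT3, PROM1, SPINK2, MECOM and MN1.

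Surface markers of myeloid maturation differed in both directions. C5AR1 (chromosome 19, 47793280 to 47825323), the receptor for complement C5a, stood at 1.06 TPM untreated and 36.6, 47.5 and 13.8 TPM at 6, 12 and 24 h. FCGR1A, the high-affinity receptor for IgG, stood at 12.3 TPM and then 60.9, 95.2 and 65.4 TPM. Both were higher in each treated library than in the untreated one. FCAR (log2 ratio 1.86), FCER1G (1.74) and ITGAX (1.55), a receptor for IgA, the Fc receptor gamma chain and the integrin chain CD11c, were also higher. S100A9, a calcium-binding protein of neutrophils, was lower, with 426.2 TPM untreated and 197.5, 127.9 and 120.1 TPM after treatment, as was the formyl peptide receptor FPR2 (-1.70). The count was 5 higher and 2 lower of 15 maturation markers at 5 TPM, against 6.32% and 3.39% of all genes, with a median of 0.60. C5AR1, FCER1G (2.36 TPM untreated) and ITGAX (1.15 TPM untreated) reached 5 TPM only at 6 h, and FPR2 only untreated. The count and the median thus depend in part on the minimum. The other 12 of the 27 listed stayed under 5 TPM, among them ITGAM, which was listed at 0 untreated and at 1.38 TPM at 6 h.

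Granule proteins, the stored products of the promyelocyte, were above 0 in 10 of 13 members at 5 TPM. ELANE, neutrophil elastase, had 629.7 TPM untreated and 1495 TPM at 6 h, and 703.1 and 415.5 TPM at 12 and 24 h. SRGN, the proteoglycan serglycin that packs granules, had 104.2 TPM and then 356.0, 593.3 and 465.9 TPM. ELANE was thus highest at 6 h and lowest at 24 h, whereas SRGN was above the untreated level in all treated libraries. These were the 2 higher members of 13 at 5 TPM (median 0.58, against -0.06 for all genes), and none was lower. AZU1 (0.96) was the nearest to 2-fold, while PRTN3 (-0.24) and RNASE2 (-0.84) were below 0. In NB4 at 6 h the median was -0.58 over the members at 5 TPM there and -0.41 over those at 5 TPM in Kasumi-1. Among myeloid transcription factors, NFE2 (1.73 TPM untreated and 11.9 TPM at 6 h) and ID3 (1.81 and 10.0 TPM) were higher and GFI1 lower of 14 at 5 TPM. NFE2 and ID3 reached 5 TPM only at 6 h, so these calls follow in part from the minimum. SPI1, the master factor PU.1, stood at 132.4 and 263.4 TPM (0.99), just short of 2-fold, and CEBPA at 13.7 and 13.9 TPM. Of the cytokine receptors, IL3RA, the receptor chain for interleukin-3, had 4.38 TPM untreated and 30.5 TPM at 6 h, and IL1RAP 36.3 and 95.9 TPM. These were the 2 higher of 12 at 5 TPM with none lower, and IL3RA reached 5 TPM only at 6 h. Over all genes 6.32% were higher and 3.39% lower.

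Immediate early genes had the highest median of all the lists. KLF2 (chromosome 19, 16435628 to 16438685), a zinc finger factor that restrains inflammatory activation, stood at 24.9 TPM untreated and 572.7, 309.3 and 130.7 TPM at 6, 12 and 24 h. NR4A1, an orphan nuclear receptor, had 10.3 TPM and then 142.0, 79.9 and 26.5 TPM, and IER2 had 13.2 TPM and then 109.7, 24.7 and 20.4 TPM. The 6 h library was the highest of the 4 for these genes, and by 24 h IER2 stood near its untreated level while KLF2 did not. JUN, a subunit of the AP-1 factor, had 38.4 TPM untreated and 221.5 and 258.5 TPM at 6 and 12 h. Of 25 immediate early genes 19 reached 5 TPM, and 13 of them were higher and none lower, against 6.32% and 3.39% of all genes. Their median log2 ratio was 1.94. EGR3 (1.64 TPM untreated), MAFF (2.30 TPM) and BTG2 (2.25 TPM), all higher, reached 5 TPM only at 6 h. FOSB (4.14 TPM), which was not 2-fold higher, and IER5 did so as well. The count and this median, which is the value of MAFF, thus depend in part on the minimum. IER5 had the largest value (39.1 TPM at 6 h), but it was listed at 0 in the untreated library, so no fold is given. The classic members did not all take part: FOS had 15.8 TPM untreated and 11.3 TPM at 6 h, EGR1 56.6 and 47.3 TPM, and FOSL2 76.4 and 58.1 TPM. In NB4, 11 of the 18 members at 5 TPM there were higher and none lower at 6 h, with a median of 1.45. Over the members at 5 TPM in Kasumi-1 the NB4 median was 1.11. The cAMP response element, TGACGTCA, by which many such genes are known to be switched on, was found in the promoters of JUND and MAFF among the 15 immediate early genes with a promoter listed by RefSeq, and in 4.01% of the 8618 genes at 5 TPM that matched by name.

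Feedback inhibitors of MAP kinase signalling were split. DUSP8, a phosphatase of the stress kinases JNK and p38, had 0.138 TPM untreated and 23.9, 15.5 and 3.51 TPM after treatment. DUSP6, a phosphatase of ERK, was lower, with 51.6 TPM untreated and 22.6, 14.3 and 20.8 TPM. The list counted 3 higher (DUSP8, PHLDA1 and DUSP16) and 1 lower (DUSP6) of 13 at 5 TPM, with a median of 0.30. DUSP8 was listed at 0 in both NB4 libraries.

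**Figure D2:**
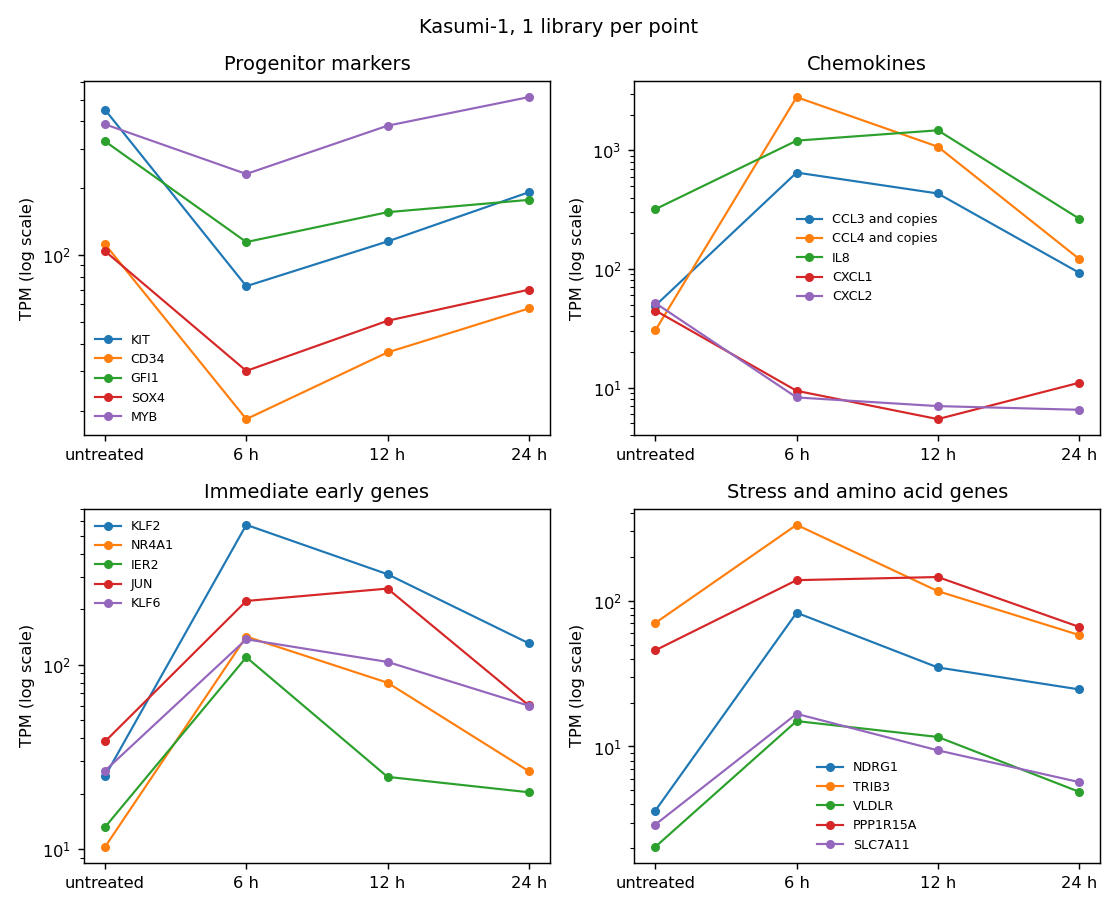
TPM (log scale) of 20 genes or summed gene copies in the 4 Kasumi-1 libraries (x axis: untreated, 6, 12 and 24 h), in panels for progenitor markers, chemokines, immediate early genes, and stress and amino acid genes; 1 point per library, with lines only to guide the eye. KIT and CD34 are lowest at 6 h, and KLF2, NR4A1 and IER2 are highest there.

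Chemokine genes differed in opposite directions. CCL4 and its near-identical copies CCL4L1 and CCL4L2, whose reads may be split between them, together had 30.4 TPM untreated and 2811, 1074 and 121.7 TPM at 6, 12 and 24 h, 92.5-fold higher at 6 h. CCL3 with CCL3L1 and CCL3L3 had 49.2 TPM and then 649.7, 433.0 and 93.1 TPM, 13.2-fold higher at 6 h. Both families encode attractants of monocytes and T cells, were highest at 6 h and remained above the untreated level at 24 h. CCL5, a further CC chemokine, had 55.2 TPM untreated and 320.8, 131.5 and 118.0 TPM after treatment. IL8, the neutrophil attractant, had 319.2 TPM and then 1208, 1477 and 265.9 TPM. Of the related CXC chemokines, CXCL1 and CXCL2 were lower. CXCL1 had 44.6 TPM untreated and 9.39, 5.42 and 10.97 TPM, and CXCL2 had 51.5 TPM and then 8.25, 6.98 and 6.50 TPM. Every treated library was below the untreated one for CXCL1 and CXCL2. CXCL3 did not reach 2-fold (-0.67), with 11.02 TPM untreated, 6.53 TPM at 6 h, nearly the untreated level at 12 h and 3.61 TPM at 24 h.

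Regulators of NF-kB, the factor that drives many of these chemokines, showed no common direction in Kasumi-1. TNFAIP3, which encodes the deubiquitinase A20, a brake on the pathway, had 86.5 TPM untreated and 32.5, 49.3 and 69.3 TPM after treatment. NFKBIE, an inhibitor of NF-kB, had 41.8 TPM and then 17.0, 24.5 and 27.5 TPM. BCL3, a coactivator of the family, was higher (6.00 TPM untreated and 21.5 TPM at 6 h), and RELA (62.6 and 88.8 TPM) and RELB (46.0 and 67.0 TPM) were above 0 without reaching 2-fold. Of 31 NF-kB and chemokine genes 23 reached 5 TPM, with 5 higher, 4 lower and a median of -0.08, near that of all genes. The sign of this median depended on the minimum: it was 0.11 with genes from 1 TPM on. NB4 shares no library with this comparison. Of the 23 members at 5 TPM in NB4, 20 were higher and none lower, with a median of 2.26. Of all 10678 genes at 5 TPM there, 3.23% were higher. These members are not the same set as in Kasumi-1, over whose members the NB4 median was 2.05. TNFAIP3 had 8.58 TPM in untreated NB4 and 183.7 TPM after 6 h. ICAM1 and NFKBIA were higher there as well, with a log2 ratio of 2.99 for NFKBIA against 0.68 in Kasumi-1. CXCL1 was listed at 0 in both NB4 libraries.

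**Figure D3:**
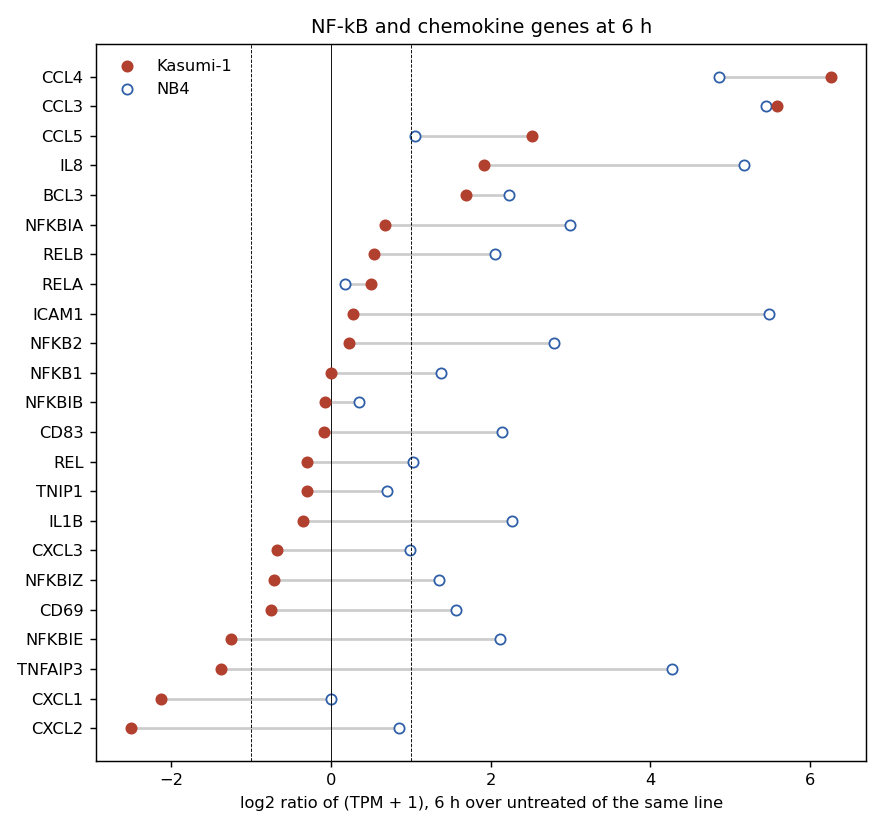
Log2 ratio of TPM + 1 at 6 h over untreated (x axis) for the 23 NF-kB and chemokine genes at 5 TPM in Kasumi-1 (filled red) and the same genes in NB4 (open blue), 1 library per group; dashed lines mark 2-fold. The NB4 points lie right of the Kasumi-1 points in most rows, and only CCL4, CCL3, CCL5 and RELA have the Kasumi-1 point further right.

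Because CXCL1, CXCL2 and TNFAIP3 were lower while CCL3 and CCL4 were higher, the promoters of the lower genes are shown. A core of the NF-kB site, a run of 3 G, any 2 bases, 3 T and 2 C, was searched on both strands of the RefSeq promoters (GRCh38.p14), a window of 300 bases from 250 before the start to 50 after it. It was found in 2.33% of the 27305 genes with a listed promoter and in 2.80% of the 8618 genes at 5 TPM that matched by name. Capitals mark the matches, and the 250 bases before each start are shown. In CXCL1 (chr4:73869143-73869392, plus strand) the match begins 79 bases before the start.
CXCL1: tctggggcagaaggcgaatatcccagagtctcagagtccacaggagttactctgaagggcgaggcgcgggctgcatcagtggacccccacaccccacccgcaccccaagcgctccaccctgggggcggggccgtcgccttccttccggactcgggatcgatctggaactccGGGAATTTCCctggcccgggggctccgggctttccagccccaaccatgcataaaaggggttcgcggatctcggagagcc
CXCL2: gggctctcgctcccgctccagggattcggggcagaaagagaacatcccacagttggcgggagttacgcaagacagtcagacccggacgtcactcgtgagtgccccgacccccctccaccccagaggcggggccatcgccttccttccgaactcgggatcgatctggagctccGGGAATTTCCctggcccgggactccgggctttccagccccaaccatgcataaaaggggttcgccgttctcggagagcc
TNFAIP3: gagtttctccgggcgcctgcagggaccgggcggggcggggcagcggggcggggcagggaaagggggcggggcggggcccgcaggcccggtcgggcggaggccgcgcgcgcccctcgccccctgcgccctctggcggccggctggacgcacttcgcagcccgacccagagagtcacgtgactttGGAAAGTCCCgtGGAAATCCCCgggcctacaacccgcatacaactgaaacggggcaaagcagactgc
CXCL2 lies on the minus strand (chr4:74099196-74099445) with its match 78 bases before the start, in a stretch much like that of CXCL1. TNFAIP3 (chr6:137867009-137867258, plus strand) holds 2 matches, 67 and 55 bases before the start, both read on the other strand. Of the 18 NF-kB and chemokine genes with a listed promoter, 11 held the core. Their median log2 ratio was -0.30 with none higher and 3 lower, and that of the 7 without it was 0.50 with 3 higher and none lower. Of the 11 with the core 3 were above 0, among them NFKBIA (0.68) and NFKB2 (0.23). The 5 members at 5 TPM whose promoters were not searched include CCL4 and CCL5, both higher, and NFKBIE, which was lower, besides RELB and CD69. A match describes letters in this window and is not a measured binding site. Only this core was searched, so a gene without a match may still hold a site of other letters. The 2 sets are therefore not genes with and without NF-kB sites.

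Many genes of the integrated stress response were higher. TRIB3, a pseudokinase induced by ATF4, stood at 70.6 TPM untreated and 333.3, 116.7 and 58.4 TPM at 6, 12 and 24 h. NDRG1, a stress and differentiation gene, had 3.63 TPM and then 82.9, 34.9 and 24.7 TPM, and PPP1R15A, which encodes the phosphatase subunit GADD34 that reverses eIF2alpha phosphorylation, had 45.8 TPM and then 138.9, 146.0 and 66.3 TPM. For TRIB3 and NDRG1 the 6 h library was the highest, and TRIB3 was below its untreated level at 24 h. ATF4 itself had 579.8 TPM untreated and 1072 TPM at 6 h (0.89), just short of 2-fold. Of 29 genes 25 reached 5 TPM, and 11 were higher, among them VLDLR, ADM2, CBS and HERPUD1, and 1, the cystathionine lyase CTH (-1.17), was lower. The median log2 ratio was 0.95 at 6 h, and with the same untreated library it was 0.62 at 12 h and 0.07 at 24 h. Not all targets took part: CHAC1, which degrades glutathione, had 37.2 TPM untreated and 26.2 TPM at 6 h, and ATF3 had 30.0 and 22.3 TPM. In NB4 1 of 22 was higher and 1 lower at 6 h, with a median of -0.05; there TRIB3 had 167.1 TPM untreated and 167.2 TPM after treatment.

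Genes of amino acid supply differed less. Among transporters, SLC6A9, for glycine, had 5.06 TPM untreated and 32.6, 29.3 and 13.6 TPM after treatment, and SLC7A11, which imports cystine, had 2.91 TPM and then 16.8, 9.40 and 5.69 TPM. These were the 2 higher of 14 at 5 TPM, with none lower and a median of 0.52. SLC7A5 (0.85) and SLC38A2 (0.75) were above 0 without reaching 2-fold. Of 20 aminoacyl-tRNA synthetases, which charge tRNAs, WARS was higher (76.0 TPM untreated and 246.1 TPM at 6 h), none was lower and the median was 0.22. The serine and one-carbon enzymes were split, with ALDH1L2 (4.16 and 40.2 TPM) and PSAT1 (92.2 and 203.9 TPM) higher and SHMT1 (33.0 and 12.1 TPM) and TYMS (710.4 and 325.8 TPM) lower of 14.

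The promoter of an ATF4 target that was below 0 (CHAC1, log2 ratio -0.49) is shown with the core of the composite site bound by ATF4 and C/EBP proteins, TGATGNAA, searched on both strands. It was found in 4.46% of the 27305 genes and in 2.44% of the 8618 matched genes at 5 TPM. In CHAC1 the match, in capitals, is read on the other strand.
CHAC1: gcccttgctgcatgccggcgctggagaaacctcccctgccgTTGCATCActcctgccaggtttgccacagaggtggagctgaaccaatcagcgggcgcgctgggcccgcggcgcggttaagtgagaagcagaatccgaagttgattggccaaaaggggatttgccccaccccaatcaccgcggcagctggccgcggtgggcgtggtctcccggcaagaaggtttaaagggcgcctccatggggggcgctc
The match begins 209 bases before the start of CHAC1 (chr15:40953221-40953470, plus strand). Of the 16 synthetases with a listed promoter, 7 held the core, and all 7 had log2 ratios above 0 (median 0.52), against 4 of the 9 without it (median -0.23), although WARS, the highest, was without it. Of 23 stress response genes 6 held it, with a median of 0.54, and the 17 without it had a median of 0.96; NDRG1, the highest of the list, was not searched. Of 13 transporters 5 held it, with medians of 0.46 with and 0.37 without. Here too only the core was searched, so a gene without a match may hold a site of other letters.

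Other stress programmes involved few members. HSPA1A and HSPA1B, near-identical inducible heat shock genes, together had 5.79 TPM untreated and 41.6, 36.4 and 17.7 TPM at 6, 12 and 24 h. They lie in a stretch of chromosome 6 (28 to 34 Mb) where 285 of 419 genes were listed at 0 in both libraries. The share at 0 over all genes was not counted, so this number does not show the stretch to be unusual. Whether levels are understated there, for these or other genes of the stretch, was not tested. HSPA8, the constitutive HSC70, had 2323 TPM untreated and 4948 TPM at 6 h, and 3447 and 1257 TPM later. With DNAJB4 these were the 4 higher of 17 heat shock genes, none was lower, and the median was 0.22. In NB4 8 of 17 were higher with a median of 0.98, and DNAJB1 had log2 ratios of 2.42 there and 0.74 in Kasumi-1. The oxidant response factor NRF2 had 5 higher and no lower gene among 16 targets at 5 TPM (median 0.22): SLC7A11, HMOX1, OSGIN1 and the ferritin chains FTL (2318 TPM untreated and 5801 TPM at 6 h) and FTH1 (218.1 and 476.7 TPM). Of 25 chaperones and unfolded protein response genes of the endoplasmic reticulum, HERPUD1 and DNAJB9 were higher and none lower, with a median of 0.10. SDF2L1 (-0.64), PDIA4 (-0.38) and CALR (-0.28) were below 0.

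TXNIP, which holds back glucose uptake, and its alpha-arrestin relatives were mostly lower, 3 of 5 with none higher. ARRDC3 stood at 86.8 TPM untreated and 16.8, 16.5 and 14.8 TPM at 6, 12 and 24 h. TXNIP had 340.7 TPM and then 144.2, 167.6 and 118.3 TPM, and ARRDC4 15.3 TPM and then 3.89, 3.63 and 2.02 TPM. All 3 were lower in each treated library than in the untreated one, and ARRDC2 (0.60) and ARRDC1 (-0.50) did not reach 2-fold. In NB4 TXNIP (-1.90) and ARRDC4 (-1.72) were lower and ARRDC3 was not (0.48). Of 23 hypoxia and glycolysis genes only the glucose transporter SLC2A3 was higher (76.0 TPM untreated and 278.2 TPM at 6 h), none was lower, and LDHA (-0.85), PGAM1 (-0.70) and PGK1 (-0.69) were below 0.

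Lipid synthesis genes were higher in part. INSIG1, the sterol-sensing retention protein of the endoplasmic reticulum, stood at 94.9 TPM untreated and 312.3, 128.9 and 194.5 TPM after treatment. SQLE, squalene epoxidase, had 154.2 TPM and then 323.1, 212.1 and 255.7 TPM. Both were highest at 6 h, lower at 12 h and again higher at 24 h. Of 25 cholesterol genes at 5 TPM 6 were higher (among them also MVD, SC5D and CYP51A1), none was lower and 20 were above 0, with a median of 0.46. Over all genes 6.32% were higher and the median was -0.06. MVK, mevalonate kinase, was at -0.60, and the factor SREBF2 at 0.40 (183.7 and 242.5 TPM). In NB4 19 of 24 were higher at 6 h and the median was 1.78, with INSIG1 at 2.95 and MVK at 2.17. Of 11 fatty acid synthesis genes, FASN (343.2 TPM untreated and 809.1 TPM at 6 h), SCD, ACSS2 and FADS1 were higher and ACACB was lower, with a median of 0.42 against 1.08 in NB4.

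Lysosome genes showed little by count, 2 higher and none lower of 30, with a median of 0.17. Cathepsin L (CTSL) stood at 5.24 TPM untreated and 37.2, 38.5 and 18.2 TPM after treatment, and acid sphingomyelinase (SMPD1) at 4.20 TPM and then 9.72, 10.0 and 7.44 TPM. NPC1 (0.94) and NPC2 (0.88), which export lysosomal cholesterol, were short of 2-fold. Of 24 autophagy genes OPTN (7.28 TPM untreated and 26.8 TPM at 6 h), SQSTM1 (132.8 and 388.5 TPM) and TFE3 (22.0 and 45.6 TPM) were higher and none was lower, with a median of 0.29.

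Genes of cell survival gave a mixed picture. BBC3, which encodes the BH3-only killer PUMA, stood at 2.91 TPM untreated and 30.3, 15.8 and 10.2 TPM at 6, 12 and 24 h. BCL2A1, an anti-apoptotic member, had 0.515 TPM and then 10.3, 16.2 and 5.35 TPM, and PMAIP1, the BH3-only protein NOXA, 62.9 TPM and then 178.0, 153.0 and 63.3 TPM. BBC3 and PMAIP1 were highest at 6 h, and PMAIP1 was close to its untreated level at 24 h. With BOK and BMF these were the 5 higher of 16 BCL2 family genes, and none was lower (median 0.24). Over all genes 6.32% were higher and 3.39% lower. BBC3, BCL2A1 and BMF (3.09 TPM untreated) reached 5 TPM only at 6 h, so this count and median depend in part on the minimum. MCL1 had 202.8 TPM untreated and 280.7 TPM at 6 h, and BCL2 11.5 and 16.6 TPM. Of 22 p53 targets 6 were higher and none lower, with a median of 0.07: BBC3, PLK3, CDKN1A (8.81 TPM untreated and 37.3, 49.0 and 12.4 TPM), BTG2, MDM2 and TNFRSF10B. GADD45A (-0.57) and FDXR (-0.64) were below 0. Of the 6 higher targets, BBC3 and BTG2 (2.25 TPM untreated) reached 5 TPM only at 6 h. Among death receptors and caspases, the receptors TNFRSF10B and TNFRSF10D were higher, and their ligand TNFSF10 (TRAIL, 51.6 TPM untreated and 13.1 TPM at 6 h), DIABLO and CASP6 were lower, of 17.

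DNA replication genes were below 0 almost throughout. The helicase subunit MCM2 had 236.2 TPM in the untreated library and 98.4, 85.3 and 92.2 TPM at 6, 12 and 24 h. UNG, a uracil glycosylase, had 272.9 TPM and then 102.4, 80.1 and 76.6 TPM, and TYMS, thymidylate synthase, 710.4 TPM and then 325.8, 348.6 and 309.7 TPM. These 3 were lower in every treated library, and their 6 h levels were already close to those at 24 h. Of 40 genes 39 were below 0, with GINS4 (0.34) the exception, and the median was -0.77. But 6 reached 2-fold, namely these 3 with GINS2, GINS3 and E2F2, and none was higher. Over all genes 3.39% were lower and the median was -0.06. In NB4 none of 40 reached 2-fold either way and the median was -0.21. The 34 mitosis genes differed less, with none at 2-fold, a median of -0.27, and AURKB (50.4 TPM untreated and 52.0 TPM at 6 h) and CDC20 (244.2 and 241.7 TPM) nearly equal. Among G1 regulators the inhibitors CDKN2D (2.86 TPM untreated and 21.0 TPM at 6 h), CDKN1A and CDKN2A (18.1 and 49.4 TPM) were higher, and CDK2 (54.2 and 25.4 TPM) and CDKN2C (133.1 and 60.9 TPM) were lower, of 16.

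Growth genes differed by small amounts. Of 30 MYC and ribosome biogenesis genes none reached 2-fold and the median was -0.34, with MYC at 41.0 TPM untreated and 33.5 TPM at 6 h. Of 35 nuclear-encoded respiratory chain genes 34 were below 0 and the median was -0.48, against -0.06 for all genes. NDUFC2, of complex I, was the only lower one (87.7 and 37.1 TPM), where 3.39% of all genes were lower. The 45 cytosolic ribosomal protein genes had a median of 0.19 with none at 2-fold. Tubulins were uneven: TUBA1A (43.3 TPM untreated and 458.9, 107.4 and 99.1 TPM), TUBB2A (3.97 and 52.8 TPM at 6 h) and TUBB3 (5.33 and 49.4 TPM at 6 h) were higher together with TUBE1, of 12 at 5 TPM. TUBA1B, the most abundant tubulin by the listed values (2884 and 1709 TPM), was at -0.75. TUBA8, TUBB and TUBB2B were listed under 5 TPM, and whether their levels are understated was not tested. Some lists hardly differed: none of the 5 fusion partner genes, 4 genes of cholesterol efflux and the sterol receptor LXR (MYLIP, APOC1, LPCAT3 and the receptor gene NR1H2) or 5 replication-dependent histones at 5 TPM reached 2-fold. Of 5 genes of zinc handling at 5 TPM, the metallothioneins MT1G, MT1X and MT2A, the zinc transporter SLC30A1 and the factor MTF1, MT1G alone was higher (31.98 and 84.6 TPM).

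**Figure D4:**
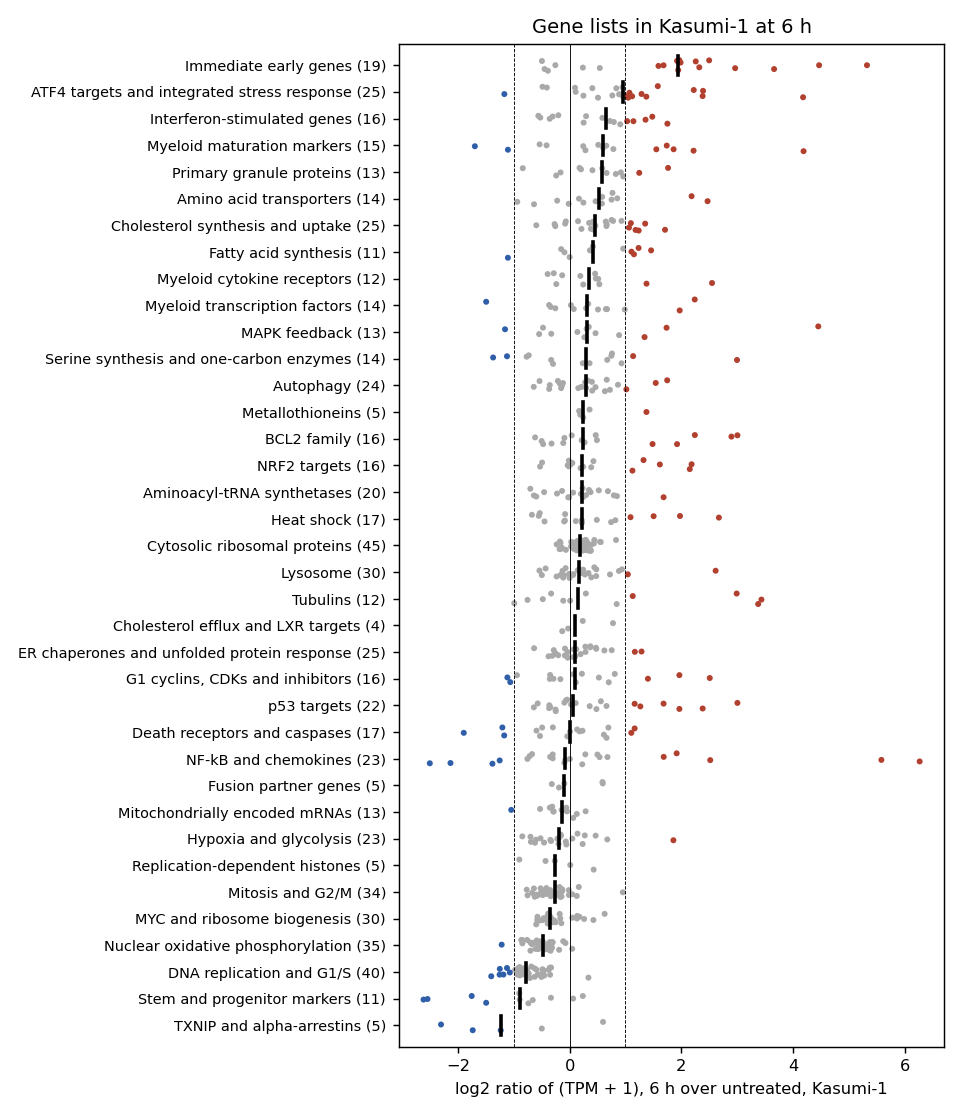
Log2 ratio of TPM + 1 at 6 h over untreated in Kasumi-1 (x axis) for the members at 5 TPM of each gene list with at least 4 of them (number in brackets). The marker lists of other cell types and that of Kasumi-1 and myeloblasts are left out. Each point is 1 gene, red or blue past 2-fold, with black bars for medians and vertical jitter. Immediate early genes have the highest median (1.94) and the TXNIP and alpha-arrestin genes the lowest (-1.24).

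Interferon-stimulated genes were higher in part, 5 of 16 with none lower and a median of 0.65. IRF7, the factor that amplifies type I interferon, had 5.49 TPM untreated and 20.8, 30.8 and 30.2 TPM at 6, 12 and 24 h. IFIT1, which binds foreign RNA, had 13.3 TPM and then 35.6, 35.0 and 7.26 TPM, and IFIT2 7.51 TPM and then 22.7, 21.3 and 6.79 TPM. IRF7 stayed above its untreated level, whereas IFIT1 and IFIT2 were below it at 24 h. IFIH1 (-0.56) was below 0, and 11 of the 27 genes listed were under 5 TPM. None of the 21 receptors that chlorprothixene is known to bind reached 5 TPM. The highest value among them was 1.22 TPM, for the histamine receptor HRH2 in the untreated library, and 8 were listed at 0 in both.

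The genes with the largest ratios were of other kinds as well. S100A10, an annexin partner, stood at 3.50 TPM untreated and 92.3, 102.9 and 24.7 TPM at 6, 12 and 24 h, and ANXA1, a phospholipid-binding annexin, at 0.602 TPM and then 28.1, 69.7 and 19.4 TPM. NT5E, the ectonucleotidase CD73, had 1.62 TPM and then 32.7, 33.3 and 10.1 TPM, and ASS1, which makes argininosuccinate, 3.08 TPM and then 72.0, 52.6 and 6.31 TPM. All 4 were above the untreated level in each treated library. PDGFA and EMP1 were highest at 6 h by a wide margin, with 33.7 TPM against 1.69, 6.35 and 5.57 TPM, and 21.1 TPM against 0.173, 3.07 and 3.14 TPM, in the untreated, 12 h and 24 h libraries. On the lower side, IL18RAP and IL18R1, the chains of the interleukin-18 receptor, had 28.2 and 12.0 TPM untreated and 2.58 and 1.44 TPM at 6 h. The immune checkpoint ligand CD200 had 24.1 and 4.45 TPM, and the sorting nexin SNX22 17.6 and 0.326 TPM.

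For some genes with large ratios the assignment of reads between overlapping genes is uncertain. BLOC1S5-TXNDC5, a read-through of 2 neighbouring genes, was listed at 0 untreated and at 159.6 TPM at 6 h, while TXNDC5, which shares its exons, had 365.8 and 62.5 TPM. Summed they had 365.8 TPM untreated and 222.1 TPM at 6 h, a log2 ratio of -0.72. SENP3-EIF4A1 (4.26) became -0.17 when summed with EIF4A1, and CORO7-PAM16 (-2.46) became 0.07 when summed with CORO7 and PAM16. CCPG1, a receptor for autophagy of the endoplasmic reticulum, stayed at 3.25 when summed with DYX1C1-CCPG1 (4.59 TPM untreated and 52.3 TPM at 6 h). AC011933.1 and AC020663.1 lie inside GRB2 and GLYR1 on the same strand. Of the genes called, 129 higher and 60 lower shared a strand and a stretch with another gene at 1 TPM or more, and 8 and 1 were listed at 0 in the lower library.

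The other comparisons are given beside these by their own counts. The 12 and 24 h libraries were set against the same untreated library, so their values are not independent of those at 6 h. At 12 h 532 genes were higher (4.77% of 11153) and 433 lower (3.88%), and at 24 h 536 were higher (4.77% of 11236) and 502 lower (4.47%). NB4 at 6 h, set against its own untreated library, had 345 higher (3.23% of 10678) and 248 lower (2.32%). Of 9850 genes at 5 TPM in the 6 h comparison of both lines, 472 were higher in Kasumi-1 and 276 in NB4, and 101 in both, which is 21.4% of the Kasumi-1 list and 36.6% of the NB4 list. Of these 9850, 267 and 167 were lower and 36 were lower in both (13.5% and 21.6%). Of the Kasumi-1 genes, 9 of the higher and 9 of the lower ones passed 2-fold the opposite way in NB4.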

How the data were processed

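Total RNA was extracted on columns and sequenced from libraries made with an Illumina TruSeq kit, per the labels' protocols. The submitters' processing notes name HISAT2, StringTie and the build hg19. Versions, options, annotation and strandedness are not given in the sources. Each deposited table lists TPM, FPKM and coverage for 57820 gene IDs, per the file headers. The deposited TPM values were the measure used. The deposited FPKM values served as an alternative, and the deposited coverage values, a signal, only to describe depth. Samples were grouped by the line and time in their titles.

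TPM was summed over the rows of a gene name (297 names had more than 1), genes with at least 5 TPM in either library were kept, and log2((TPM + 1)/(TPM + 1)) was computed with a pseudocount of 1, which understates the differences of scarce genes. A gene was called where this reached 1 or -1. Counts and medians of a list in NB4 took the members at 5 TPM in NB4, which can differ from those in Kasumi-1. The values are not counts and each group has 1 library, so no test was made. The script that counts the calls was checked on simulated levels with seeded differences, which is no check of the measurements. The genes and the 42 gene lists were chosen with earlier results of these data known. Named genes were the 25 highest and 25 lowest ratios, up to 6 members each way of a list at 5 TPM, the regulators of the lists, and the genes next to the thresholds. Members under 5 TPM were named where a list was accounted for, and RELA, RELB, ICAM1, MALT1, LTBR and the overlapping partners of named genes were named outside the rule, after their values were seen. Gene types came from GENCODE 29 by ID (90.5% matched) and promoters from RefSeq (GRCh38.p14) by symbol; positions in the text are those of the deposited tables unless a promoter is named. Alternatives were the pseudocount, the minimum level, FPKM, rescaling, centring and the treatment of repeated names; 2 more, leaving out genes listed at 0 and overlapping genes, were added after seeing the data. Scripts used Python 3.11.15, pandas 2.3.3, numpy 2.4.6 and matplotlib 3.10.9.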

Additional observations from a re-analysis of the deposited data

Results flagged for a closer look

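In 3 of the named genes the 6 h library differed from the untreated one by at least 2-fold in both lines, in opposite directions; with 1 library per group the difference between the lines was not tested. NFKBIE, an inhibitor of NF-kB, had a log2 ratio of -1.25 in Kasumi-1 and 2.12 in NB4. TNFAIP3, the A20 gene, had -1.38 in Kasumi-1 and 4.27 in NB4, where its level was 8.58 TPM untreated and 183.7 TPM at 6 h. TOMM6, a small subunit of the mitochondrial import pore, had -2.18 in Kasumi-1 (35.3 TPM untreated and 7.03 TPM at 6 h) and 3.85 in NB4 (28.6 and 425.4 TPM). TOMM6 shares a strand and a stretch with PRICKLE4, so the assignment of its reads is uncertain.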

How the results depend on the processing

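The count of 716 higher genes became 426 with a pseudocount of 5, 1090 with genes from 1 TPM on or with no minimum, and 423 with FPKM, whose values are lower so that fewer genes (9133) reached 5. The count of 384 lower genes became 204 with a pseudocount of 5. A larger pseudocount shrinks the ratio of scarce genes by construction, and a lower minimum lets in more of them. Of the lists, 6 had a median of at least 0.5; this became 2 with a pseudocount of 5 and 3 with no minimum. The 4 lists with a median of at most -0.5 became 2 with no minimum, where the progenitor markers were at -0.22. The other 36 recomputed counts stayed within 1.5 times, and no named gene or list called higher or lower took the opposite sign. Subtracting the median of all genes gave 783 higher and 339 lower genes. Leaving out a replicate was not possible with 1 library per group. No paired analysis was possible because each group holds 1 library and the replicate numbers only name samples. Scarce genes rest on little coverage, so the size of their ratios is the least certain.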

Other observations

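Some gene types, picked after their values were seen, are described here. Of all 11326 genes, 6.32% were higher and 3.39% lower. Other types were not picked, such as antisense RNAs (20 higher and 10 lower of 215) and long intergenic RNAs (8 and 15 of 127). Of 22 mitochondrial tRNAs at 5 TPM, 5 were higher and 10 lower, with a median log2 ratio of -0.91. MT-TM, for methionine, stood at 92.4 TPM untreated and 484.4, 921.2 and 3451 TPM at 6, 12 and 24 h, and MT-TQ, for glutamine, at 18.2 TPM and then 93.7, 128.7 and 264.5 TPM. MT-TN, for asparagine, stood at 1380 TPM untreated and 528.3, 748.2 and 1107 TPM, and MT-TT, for threonine, at 154.6 TPM and then 40.3, 54.6 and 114.5 TPM. Both directions occurred on both strands of the mitochondrial genome (4 higher and 5 lower of 14 on the plus strand, 1 and 5 of 8 on the minus strand). How well such short RNAs were captured was not tested.

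Of 9 T cell receptor gene segments at 5 TPM, 6 were lower and none higher, against 3.39% and 6.32% of all genes. Of the lower ones, TRAV8-5, TRBV27, TRBV9 and TRDJ1 reached 5 TPM only in the untreated library. Their being lower thus follows in part from the minimum. TRDC, the constant segment of the delta chain, stood at 84.4 TPM untreated and 25.9, 31.0 and 33.7 TPM at 6, 12 and 24 h, and TRBV28, a variable segment of the beta chain, at 116.0 TPM and then 55.9, 54.1 and 100.8 TPM. CD3D, a chain of the T cell receptor complex, had 11.5 TPM untreated and 2.24 TPM at 6 h, while CD3E and CD3G were below 1 TPM in both libraries. Of 51 small nucleolar RNAs at 5 TPM, 12 were higher and 4 lower, against 6.32% and 3.39% of all genes. Their median was 0.47 against -0.06 for all genes. Several passed the minimum only in the library where they were high. SNORD14C (0.006 TPM untreated and 6.62 TPM at 6 h) and SNORD24 (0.062 and 5.08 TPM) are such higher ones, and SNORA77 (16.6 and 0.486 TPM) such a lower one. The counts and the median therefore depend in part on the minimum. Each of the 51 overlaps another gene on the same strand, such as SNORD14C, SNORD14D and SNORD14E in HSPA8, itself at least 2-fold higher, so the assignment of their reads is uncertain. The gene MT-ND6, the only mitochondrial mRNA at 2-fold, had 1352 TPM untreated and 654.3 TPM at 6 h.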
